A study of Mus musculus with 8 samples.

Results

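The cytosolic chaperonin CCT, also called TRiC, was followed through the 8 genes that encode its subunits, Tcp1, Cct2, Cct3, Cct4, Cct5, Cct6a, Cct7 and Cct8, in mouse liver before and after partial hepatectomy. Its members were the probe sets to which the array annotation gives exactly 1 gene symbol and for which that symbol is one of the 8. They numbered 25 of the 45037 probe sets that are not array controls, with 7 each for Cct3 and Cct4, 3 for Cct2, 2 each for Cct6a, Cct7 and Cct8, and 1 each for Tcp1 and Cct5. A filter on dim signals kept 22 of the 25 and 30525 of the 45037. The 3 probe sets left out, 2 of Cct3 and 1 of Cct8, read between 0 and 3.13 on the normalised log2 scale in every array.

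All animals were male C57BL/6 mice aged 7 to 10 weeks, either labelled Tob1 null or wild type. The 4 groups were Tob1 null 24 h after removal of 2/3 of the liver, Tob1 null at 0 h, wild type 24 h after the same operation and wild type at 0 h. Each group had 2 Affymetrix arrays, each hybridised with liver RNA pooled from a different set of 3 animals, so the errors below are between pools. None of the groups was sham-operated, and effects of surgery cannot be told apart from effects of losing liver mass.

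CCT is built from a stacked pair of rings, each holding one copy of every subunit, and uses ATP to fold newly made proteins inside its central cavity. Actin and tubulin are its best known and obligate substrates, and several cell cycle regulators also pass through it. In yeast, Tcp1, Cct2, Cct4 and Cct5 sit on the side of the ring that binds ATP strongly, while Cct3, Cct6, Cct7 and Cct8 bind it more weakly. The subunits fold proteins together as an assembled ring, and their genes are commonly expressed together in dividing cells and in tissues with high protein synthesis.

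Differences are given as log2 values, 24 h minus 0 h or null-labelled minus wild type, with the SE of a limma fit to all 8 arrays. A probe set was called, and is said to have risen or fallen, where its limma p, adjusted by Benjamini-Hochberg across the 30525 tested, was under 0.05. For each gene the probe set with the highest mean over the arrays stands for it where 1 value is given, and levels are not compared between genes. The 2 arrays of a group correlated at 0.949 to 0.960. The log2 ratio of 3' to 5' control signals, which rises with RNA degradation, was lower at 24 h than at 0 h in both genotypes. For actin it averaged 1.27 ± 0.07 at 24 h and 1.56 ± 0.03 at 0 h in null-labelled liver, and 0.97 ± 0.09 at 24 h and 1.22 ± 0.25 at 0 h in wild type liver (SD, n = 2 each). Its part in the results below was not tested. Tob1 itself was read by 2 probe sets, which differed between genotypes in opposite directions. The brighter read 10.62 ± 0.06 in null-labelled and 10.03 ± 0.23 in wild type liver at 24 h, and the dimmer 3.31 ± 0.74 and 4.61 ± 0.49 (SD, n = 2 each). Neither difference was called at 24 h (adjusted p = 0.353 and 0.559) or at 0 h (adjusted p = 0.421 and 0.621), and the files do not place them relative to the deletion, so every genotype direction rests on the labels.

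All 8 subunit genes were higher 24 h after hepatectomy in both genotypes, with median log2 differences of 0.53 in null-labelled and 0.48 in wild type liver. Averaged over the genotypes, the increase spanned 1.225-fold for Cct4 to 1.66-fold for Cct3, with a median log2 difference of 0.52, while the median over 14450 genes was -0.04. In every one of the 8, both arrays at 24 h lay above both arrays at 0 h within each genotype. Over all genes this held for 29.7% in null-labelled liver, 29.4% in wild type liver and 18.7% in both. In bulk tissue, a larger share of cells expressing these genes and more RNA per cell cannot be told apart.

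**Figure D1:**
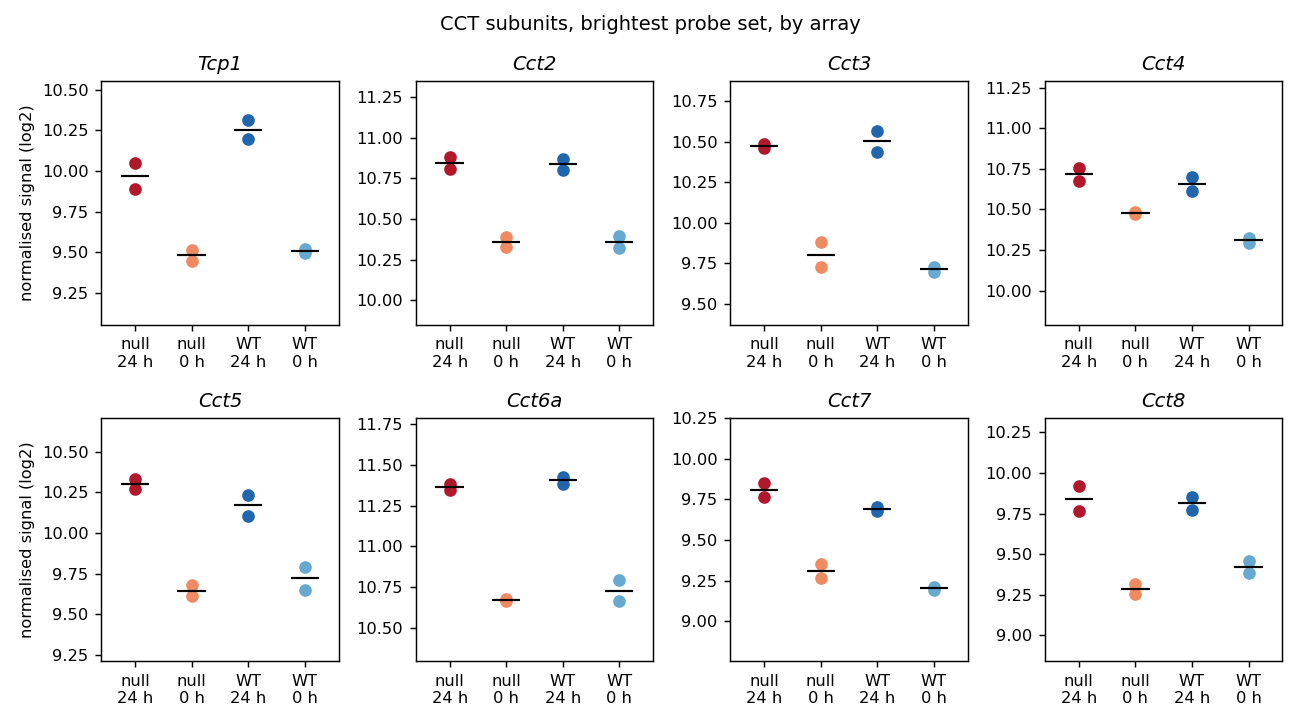
Normalised log2 signal of the brightest probe set of each of the 8 CCT subunit genes, with 1 point per array, the mean of the 2 arrays as a bar, and the 4 groups along the horizontal axis (null: Tob1 null-labelled; WT: wild type). Each vertical axis spans the same log2 range but starts at its own level; in all 8 panels the arrays at 24 h lie above those at 0 h of the same genotype.

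Among the subunits on the strong ATP side, Tcp1, the founding member of the family, read 10.05 and 9.89 in null-labelled liver at 24 h, against 9.51 and 9.45 at 0 h. In wild type liver it read 10.32 and 10.19 at 24 h, against 9.49 and 9.52 at 0 h. The groups did not overlap, and the response was 0.49 ± 0.14 in null-labelled liver (adjusted p = 0.0713) and 0.75 ± 0.14 in wild type liver (adjusted p = 0.041), so that only the second was called. Cct2 read 10.81 and 10.88 in null-labelled liver at 24 h, against 10.39 and 10.33 at 0 h. In wild type liver its values were 10.87 and 10.80 at 24 h, against 10.40 and 10.32 at 0 h. The difference was 0.48 ± 0.13 in each genotype, and neither was called (adjusted p = 0.0641 and 0.084). Cct4, whose human counterpart can assemble into rings on its own, read 10.76 and 10.68 in null-labelled liver at 24 h, against 10.48 and 10.47 at 0 h. In wild type liver it read 10.70 and 10.61 at 24 h, against 10.30 and 10.33 at 0 h. Although its arrays separated fully by time, its differences were not called (0.24 ± 0.13, adjusted p = 0.256, and 0.35 ± 0.13, adjusted p = 0.155). Cct5, which in humans can likewise form rings alone and is mutated in a hereditary sensory neuropathy, read 10.33 and 10.27 in null-labelled liver at 24 h, against 9.61 and 9.68 at 0 h. Its wild type values were 10.24 and 10.10 at 24 h, against 9.65 and 9.79 at 0 h. It rose in null-labelled liver by 0.66 ± 0.14 (adjusted p = 0.0384), while the wild type difference of 0.45 ± 0.14 was not called (adjusted p = 0.107).

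On the weak ATP side, Cct3, the gamma subunit, read 10.49 and 10.46 in null-labelled liver at 24 h, against 9.88 and 9.73 at 0 h. In wild type liver it read 10.56 and 10.44 at 24 h, against 9.73 and 9.70 at 0 h. It rose in both, by 0.67 ± 0.13 in null-labelled liver and 0.79 ± 0.13 in wild type liver (adjusted p = 0.0359 in each). Cct6a, the widely expressed form of the zeta subunit, read 11.35 and 11.38 in null-labelled liver at 24 h, against 10.68 and 10.66 at 0 h. In wild type liver it read 11.43 and 11.39 at 24 h, against 10.79 and 10.66 at 0 h. It too rose in both, by 0.69 ± 0.13 (adjusted p = 0.031) and 0.68 ± 0.13 (adjusted p = 0.0435). Cct7 read 9.85 and 9.76 in null-labelled liver at 24 h, against 9.35 and 9.26 at 0 h. Wild type values for Cct7 were 9.70 and 9.68 at 24 h, against 9.21 and 9.19 at 0 h. These differences, 0.50 ± 0.13 and 0.49 ± 0.13, were not called (adjusted p = 0.0586 and 0.0788). Cct8 read 9.92 and 9.76 in null-labelled liver at 24 h, against 9.25 and 9.31 at 0 h. Its wild type values were 9.77 and 9.85 at 24 h, against 9.46 and 9.38 at 0 h. Cct8 was also not called, at 0.56 ± 0.13 (adjusted p = 0.0522) and 0.39 ± 0.13 (adjusted p = 0.138).

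Counted over all tested probe sets of the family, 9 of 22 rose in null-labelled liver and 8 of 22 in wild type liver, and none fell. Of all probe sets tested, 6.06% rose and 4.72% fell in null-labelled liver, and 2.64% rose and 2.7% fell in wild type liver. By gene, 3 of 8 rose in each genotype, Cct3, Cct5 and Cct6a in null-labelled liver and Tcp1, Cct3 and Cct6a in wild type liver, against 5.67% and 2.52% of all genes. Cct3 and Cct6a rose in both, as did 1.74% of all genes. Averaging the responses of both genotypes gave the calls with the most arrays behind them: 16 of 22 probe sets rose and none fell, while 12.4% of all probe sets rose and 11.4% fell. Of the 8 genes, 7 rose in this average, against 12.1% of all genes, from Cct8 at 0.47 ± 0.09 (adjusted p = 0.0197) to Cct3 at 0.73 ± 0.09 (adjusted p = 0.00713). Cct4 stood at 0.29 ± 0.09 (adjusted p = 0.0623). Within a group, the 2 arrays differed by an SD of 0.0075 to 0.113 for the 8 probe sets that stand for the genes. The SE of the fit draws on the spread of other probe sets as well, with 4 residual and 2.04 prior degrees of freedom.

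The calls within 1 genotype became fewer when any single array was left out, also one of the other genotype. Across these fits the median difference of the 8 genes stayed at 0.50 to 0.60 in null-labelled liver and 0.46 to 0.52 in wild type liver. Without the first or second null-labelled array at 0 h, 0 probe sets of the family were called in the null-labelled response, and 0 without the second at 24 h. Over all probe sets the calls fell away in these fits too, to 0.176%, 0.03% and 0.395%. Without the first at 24 h, 2 were called, beside 5.24% of all. The same count was 1 without either wild type array at 0 h, and 4 and 3 without the first and second at 24 h, beside 3.58% to 7% of all probe sets. In the wild type response, 0 were called without any 1 of the wild type arrays or of the null-labelled arrays at 0 h, and 5 without either null-labelled array at 24 h. Of all probe sets, 0% to 2.22% were called where the family had 0, and 4.6% and 5.13% where it had 5. Both counts were also 0 with no filter on dim signals, where 71 and 12 of all probe sets were called. In the average of both genotypes, 10 to 16 CCT probe sets were called whichever array was left out, beside 11.4% to 21.3% of all, and Tcp1, Cct3 and Cct6a were called in each of 18 other settings. Leaving out an array took away the call of Cct2 for the first or second wild type array at 0 h, the first at 24 h and either null-labelled array at 0 h. It took away that of Cct5 for the first wild type or first null-labelled array at 0 h. Cct7 lost its call without either wild type array at 0 h or the second null-labelled one at 0 h, and Cct8 without any wild type array or either null-labelled array at 0 h. Where an array is left out, the other one of its group is assumed to vary like the remaining groups. In the average of both genotypes, the median difference of the 8 genes lay between 0.47 and 0.58 in all of these settings.

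**Figure D2:**
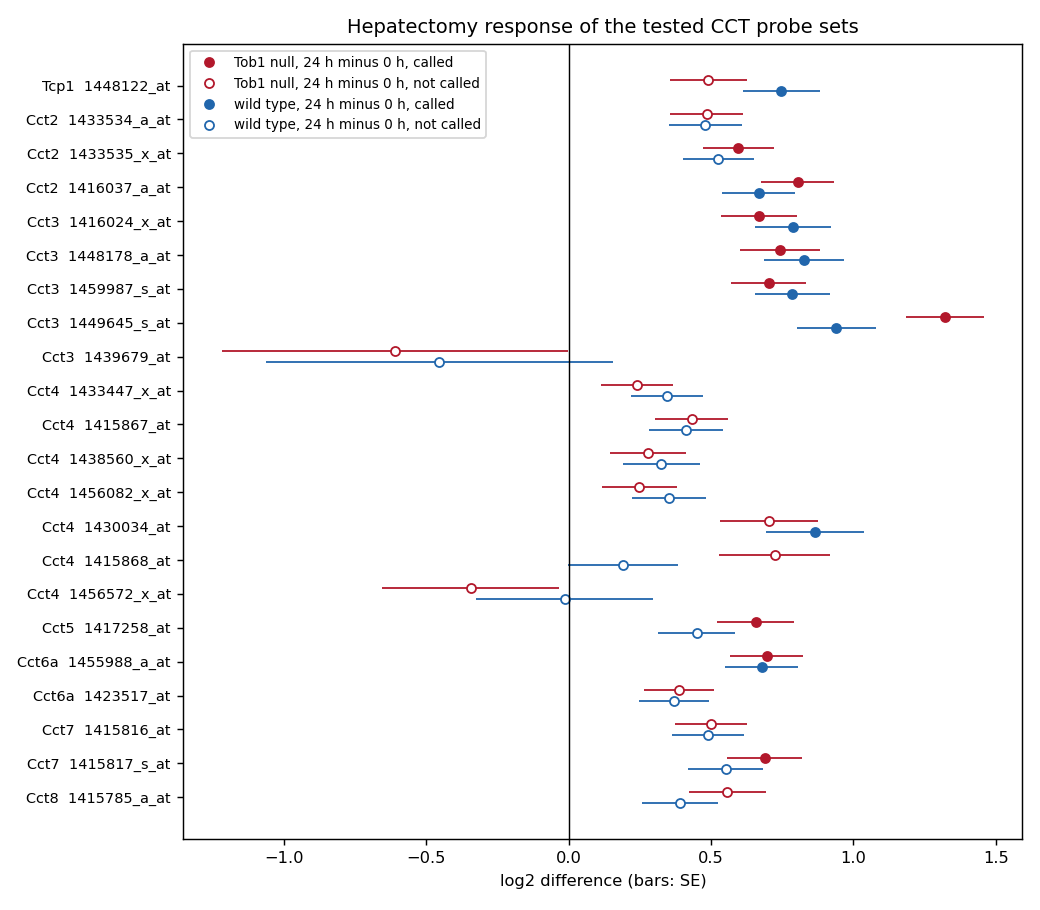
Log2 difference between 24 h and 0 h for each of the 22 tested CCT probe sets, with the SE of the limma fit as bars, for Tob1 null-labelled liver (red, upper of each pair) and wild type liver (blue, lower). Filled points were called and open points were not; 20 of the 22 lie above 0 in each genotype.

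Different probe sets of the same gene mostly gave the same direction. The 18 tested probe sets that averaged 8.29 or more were all higher at 24 h in the average of both genotypes, by 0.29 to 1.13, and 15 of them were called. Of the 4 dimmer ones, averaging 3.15 to 5.50, only 1430034_at of Cct4 was called (0.78); 1415868_at of Cct4 stood at 0.46, while 1439679_at of Cct3 (-0.53, adjusted p = 0.41) and 1456572_x_at of Cct4 (-0.18, adjusted p = 0.59) pointed the other way. Those last 2 lay above the filter limit in only 4 and 2 of the 8 arrays. This split at a mean of 7.5 was made after the values were seen. For Cct3, 3 bright probe sets gave nearly equal averages, 0.73, 0.78 and 0.74, and 1449645_s_at gave 1.13. That probe set read 8.88 and 8.73 in null-labelled liver at 24 h, against 7.53 and 7.44 at 0 h, and in wild type liver 8.90 and 8.89 at 24 h, against 8.03 and 7.88 at 0 h. Its response was 1.32 ± 0.14 in null-labelled and 0.94 ± 0.14 in wild type liver, the highest of the family in each. For Cct4, 3 of the bright probe sets have a name ending in _x_at, which marks probes that can cross-hybridise. They gave 0.29 to 0.30, and the fourth, 1415867_at, gave 0.42. The same ending is carried by 1416024_x_at, which stands for Cct3 (0.73), and by 1433535_x_at of Cct2 (0.56). The pair of Cct6a probe sets gave 0.69 and 0.38, the pair of Cct7 gave 0.49 and 0.62, and the 3 of Cct2 gave 0.48, 0.56 and 0.74. The values within Cct4 spanned a wider range than those of the 8 genes, and no ranking of the subunits is drawn.

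The next question was whether loss of Tob1, an antiproliferative protein that the series title describes as a repressor of liver regeneration, changed the subunits' levels or their response. No CCT probe set was called in either genotype comparison or in the difference of the responses. At 24 h, the 8 genes differed between null-labelled and wild type liver by -0.28 (Tcp1) to 0.13 (Cct5), with a median of 0.02. At 0 h the differences spanned -0.14 (Cct8) to 0.17 (Cct4), with a median of -0.01. The null-labelled response minus the wild type response spanned -0.26 (Tcp1) to 0.21 (Cct5), with a median of 0.01. With limma, 0 of all 30525 probe sets were called in each of these 3 comparisons (0%). A trended and robust prior called 198 at 24 h, 40 at 0 h and 23 in the difference of responses, and 16 added on the linear scale called 50, 12 and 0, none of them a CCT probe set. At an unadjusted p under 0.05, the family had 0 of 22 probe sets at 24 h, 1 of 22 at 0 h and 0 of 22 in the difference of responses, against 10.3%, 9.1% and 7.97% of all probe sets. The 1 was 1449645_s_at of Cct3, at -0.47 ± 0.14 at 0 h (adjusted p = 0.435).

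A missed threshold does not show equal levels, and the intervals give what these arrays allow. Tcp1 had the widest gap at 24 h, -0.28 with a 95% confidence interval of -0.62 to 0.05 (adjusted p = 0.544), and its null-labelled arrays both lay below the wild type ones. Cct2 at 24 h had a difference of 0.01 and an interval of -0.31 to 0.32 (adjusted p = 0.991). Cct4 at 0 h stood at 0.17, with an interval of -0.14 to 0.48 (adjusted p = 0.731). The interval for the difference of responses was wider, -0.73 to 0.21 for Tcp1, -0.26 to 0.68 for Cct5 and -0.43 to 0.45 for Cct7. In order of level at 24 h, null-labelled arrays both lay above the wild type ones for Cct5 and Cct7, below them for Tcp1 and Cct6a, and overlapped them for Cct2, Cct3, Cct4 and Cct8. At 0 h they lay above for Cct4 and Cct7, below for Cct8, and overlapped for the other 5. Groups of this size did not overlap in either direction for 40.7% of all genes at 24 h and 48.1% at 0 h. The mean over the 8 subunits was 10.44 and 10.39 in the null-labelled arrays at 24 h, against 10.45 and 10.38 in the wild type arrays. It was 9.90 and 9.86 against 9.88 and 9.86 at 0 h.

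**Figure D3:**
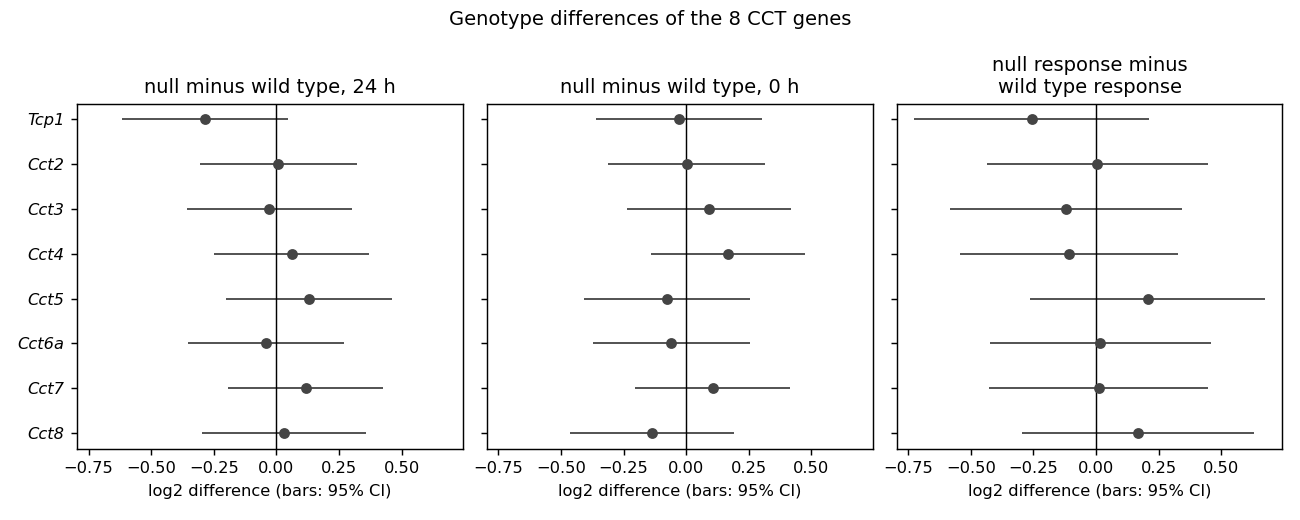
Log2 differences of the 8 CCT genes between genotypes at 24 h (left) and at 0 h (middle), and of the null-labelled response minus the wild type response (right), with 95% confidence intervals of the limma fit as bars. Every interval includes 0, and the points lie between -0.28 and 0.21.

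Correlations between the subunit genes over the 8 arrays include the difference between times that all of them share. Correlation within a time was not tested. Over the 8 arrays, which share the same 2 time points, the 28 pairs of subunits correlated at 0.80 (Cct4 with Cct8) to 0.99 (Cct2 with Cct6a), with a median Pearson's r of 0.94. Among 14442 other genes, and with symbols of predicted genes or clones skipped, 6 were named for having the highest correlation with the mean of the 8 subunits. They were Apcs, serum amyloid P (r = 0.995), Nus1, a subunit of the enzyme that makes dolichol precursors (0.994), the lysyl-tRNA synthetase Kars (0.994), the tropomyosin Tpm3 (0.994), Rpap3, a subunit of the R2TP cochaperone of HSP90 (0.993), and the progranulin gene Grn (0.992). Their differences in the average response were 2.03, 0.86, 0.49, 0.70, 1.18 and 1.38, so the likeness is one of shape and not of size.

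The promoters of the subunits are shown because the genes were all higher at 24 h and lie on different chromosomes. RefSeq windows of 250 bases before to 50 bases after the start (GRCm38.p6) were at hand for 7 of the 8 genes, all but Cct4, in 9 windows. On either strand, a GC box (GGGCGG, or CCGCCC on the other strand) was found in 8 of the 9 windows and in all 7 genes, against 35.7% of 32851 windows of the same length. A CCAAT box (CCAAT or ATTGG) was found in 4 of the 9, those of Tcp1, Cct3, Cct6a and Cct7, against 37.4%. The ETS letters CGGAAG, or CTTCCG, were in 4 of the 9 (Tcp1, both windows of Cct2, and Cct8), against 16.9%. The heat shock letters GAANNTTC were in 1 window (Cct2), against 7.86%, and TTCNNGAA in 2 (Cct5 and Cct6a), against 8.52%. The E-box CACGTG and the TATA letters TATAAA, or TTTATA, were in none of the 9, against 7.15% and 13.6%. Matched letters overlapped in no printed window. The 4 windows that hold both a GC box and a CCAAT box follow, 5' to 3' on the gene's strand, with those matches in capitals.
Tcp1 (chr17:12916079-12916378, plus strand): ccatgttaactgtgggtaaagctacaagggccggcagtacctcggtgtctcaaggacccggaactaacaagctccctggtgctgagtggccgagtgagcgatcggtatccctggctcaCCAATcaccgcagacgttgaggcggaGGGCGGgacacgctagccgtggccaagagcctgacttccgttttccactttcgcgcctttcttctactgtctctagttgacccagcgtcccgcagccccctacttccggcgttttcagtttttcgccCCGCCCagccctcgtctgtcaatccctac
Cct3 (chr3:88296885-88297184, plus strand): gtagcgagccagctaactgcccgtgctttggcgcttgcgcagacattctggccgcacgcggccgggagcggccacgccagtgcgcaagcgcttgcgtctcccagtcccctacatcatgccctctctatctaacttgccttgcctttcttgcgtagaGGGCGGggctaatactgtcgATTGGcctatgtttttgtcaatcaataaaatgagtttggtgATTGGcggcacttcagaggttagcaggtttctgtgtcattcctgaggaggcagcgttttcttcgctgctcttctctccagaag
Cct6a (chr5:129787106-129787405, plus strand): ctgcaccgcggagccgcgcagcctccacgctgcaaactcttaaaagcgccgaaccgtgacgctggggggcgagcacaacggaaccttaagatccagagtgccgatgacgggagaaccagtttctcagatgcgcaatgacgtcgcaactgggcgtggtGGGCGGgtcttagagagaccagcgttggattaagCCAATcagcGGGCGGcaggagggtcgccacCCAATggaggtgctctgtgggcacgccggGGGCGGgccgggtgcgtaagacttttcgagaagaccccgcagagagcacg
Cct7 (chr6:85451255-85451554, plus strand): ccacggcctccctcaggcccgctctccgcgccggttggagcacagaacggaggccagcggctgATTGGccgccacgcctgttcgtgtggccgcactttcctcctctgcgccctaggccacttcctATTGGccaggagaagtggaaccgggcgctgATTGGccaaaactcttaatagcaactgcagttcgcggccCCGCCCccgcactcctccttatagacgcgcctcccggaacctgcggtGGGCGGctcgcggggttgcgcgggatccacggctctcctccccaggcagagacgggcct
In these windows the CCAAT boxes begin at positions -187 to -29 from the start site, 1 in Tcp1, 2 in Cct3, 2 in Cct6a and 3 in Cct7. A match describes the letters alone.

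Genes that work with CCT were described from lists chosen with earlier results of these data known, each gene by its brightest tested probe set and by the average of both genotypes unless stated. Prefoldin, the cochaperone that hands unfolded actin and tubulin to CCT, had 2 of its 6 subunits called, both higher, with a median of 0.26. Over all genes, 12.1% rose and 13.1% fell. Pfdn4 read 7.95 and 8.32 in null-labelled liver at 24 h, against 7.06 and 7.15 at 0 h, and in wild type liver 7.74 and 7.59 at 24 h, against 7.14 and 7.34 at 0 h. It rose by 0.73 ± 0.13 (adjusted p = 0.0136), and Vbp1 rose by 0.62 ± 0.12 (adjusted p = 0.0184). Pfdn2 and Pfdn1 stood at 0.32 and 0.20 and were not called (adjusted p = 0.11 and 0.212). Of the phosducin-like and thioredoxin-like CCT cofactors, Pdcl3 (0.83 ± 0.20, adjusted p = 0.0339) and Txndc9 (0.36 ± 0.10, adjusted p = 0.0462) rose, Pdcl stood at 0.13 (adjusted p = 0.376), and Pdcl2 did not pass the filter. Of 18 other settings, Pfdn4 was called in all, Vbp1 in 13, Pdcl3 in 10 and Txndc9 in 7. Both Pdcl3 and Vbp1 lost the call without the first or second wild type array at 0 h, the first at 24 h or the first null-labelled array at 0 h; Pdcl3 also lost it if the second array of either null-labelled group was dropped. Of the 8 arrays, only the first null-labelled one at 24 h could be dropped with Txndc9 still called.

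Tubulin and actin, the main substrates, were higher at 24 h too, by more in median than the subunits, a difference that was not tested. Of 14 genes listed, 10 were tested, 7 rose and none fell, with a median of 1.11, against 12.1% of all genes that rose and 13.1% that fell. Tubb2a, a beta tubulin, read 11.40 and 11.89 in null-labelled liver at 24 h, against 9.25 and 9.43 at 0 h, and in wild type liver 12.05 and 11.33 at 24 h, against 9.51 and 9.63 at 0 h. It rose by 2.21 ± 0.20 (adjusted p = 0.0041), Tubb5 by 1.32 ± 0.13 (adjusted p = 0.00456), Tubb4b by 1.23 ± 0.09 (adjusted p = 0.00354) and Tuba1a, by an _x_at probe set, by 0.998 ± 0.11 (adjusted p = 0.0054). Tubulin genes resemble each other closely, so probes may share signal. The other 3 that rose, given after their values were seen, were the actins Actb (0.70 ± 0.10, adjusted p = 0.00857) and Actg1 (1.81 ± 0.45, adjusted p = 0.0363) and the beta tubulin Tubb6 (2.73 ± 0.60, adjusted p = 0.0259). Actg1 read 11.44 and 12.01 in null-labelled liver at 24 h, against 10.08 and 9.68 at 0 h, and in wild type liver 12.78 and 10.72 at 24 h, against 10.02 and 9.94 at 0 h. For Tubb6 the wild type arrays at 24 h read 9.15 and 6.58, so that the first stood well above the second in both genes. Without that first array, Actg1 stood at 1.30 (adjusted p = 0.0272) and Tubb6 at 2.08 (adjusted p = 0.0339). Of 18 other settings, Actb was called in 17, Actg1 in 8 and Tubb6 in 10. Both Actg1 and Tubb6 lost the call when any single array at 0 h, or the second null-labelled one at 24 h, was dropped, and Actg1 also without the first. Among 6 tubulin folding cofactors, which act on tubulin released by CCT, only Tbcb rose (0.65 ± 0.10, adjusted p = 0.0092), a share near the 12.1% of all genes, with a list median of 0.31; Tbca, Tbcc and Tbcd stood at 0.29, 0.33 and -0.23 (adjusted p = 0.0879, 0.161 and 0.196). Of 17 other substrates, 7 rose and none fell, with a median of 0.33, again beside 12.1% and 13.1% of all genes. They included Ccne1, cyclin E1, at 0.64 ± 0.13 (adjusted p = 0.0206), Hdac2 at 0.46 (adjusted p = 0.0287), Cops5 at 0.40 (adjusted p = 0.0271) and Ppp2ca at 0.40 (adjusted p = 0.0326). The Ccne1 value turned to -0.05 when its probe sets were averaged. Of 18 other settings, Ccne1 was called in 11, Hdac2 and Cops5 in 8 and Ppp2ca in 7, the losses coming mostly from leaving out single arrays of any group. The 4 named tubulin genes and Tbcb were called in all 18.

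Other chaperonins were not called. Hspd1 and Hspe1, which form the mitochondrial chaperonin, stood at 0.17 ± 0.13 (adjusted p = 0.362) and 0.18 ± 0.10 (adjusted p = 0.23). Hspd1 read 11.76 and 11.33 in null-labelled liver at 24 h, against 11.42 and 11.39 at 0 h, and in wild type liver 11.56 and 11.71 at 24 h, against 11.44 and 11.41 at 0 h. Hspe1 read 11.41 and 11.23 in null-labelled liver at 24 h, against 11.12 and 11.06 at 0 h, and in wild type liver 11.01 and 11.10 at 24 h, against 10.87 and 10.98 at 0 h. The times overlapped for Hspd1 in null-labelled liver and separated for Hspd1 in wild type liver and for Hspe1 in both. The relatives Cct6b, known as the testis form of the zeta subunit, and Mkks, Bbs10 and Bbs12, which help assemble the BBSome, gave -0.68, -0.20, 0.34 and 0.81 (adjusted p = 0.222, 0.254, 0.236 and 0.206). Cct6b and Bbs12 were dim, reading 1.68 to 3.71 and 1.44 to 3.99 over the arrays, around the filter limit. Cct6b lay above that limit only in the second array of each genotype at 0 h. Of the heat shock factors, Hsf2 stood at 0.03 and Hsf4 at -0.54 (adjusted p = 0.906 and 0.0964), and Hsf1 had no probe set naming it alone. Hsf2 and Hsf4 were dim as well, at 2.76 to 3.70 and 3.19 to 4.51. No direction is drawn from these 4 dim genes. Whether the CCT response differs from those of Hspd1 and Hspe1 was not tested.

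**Figure D4:**
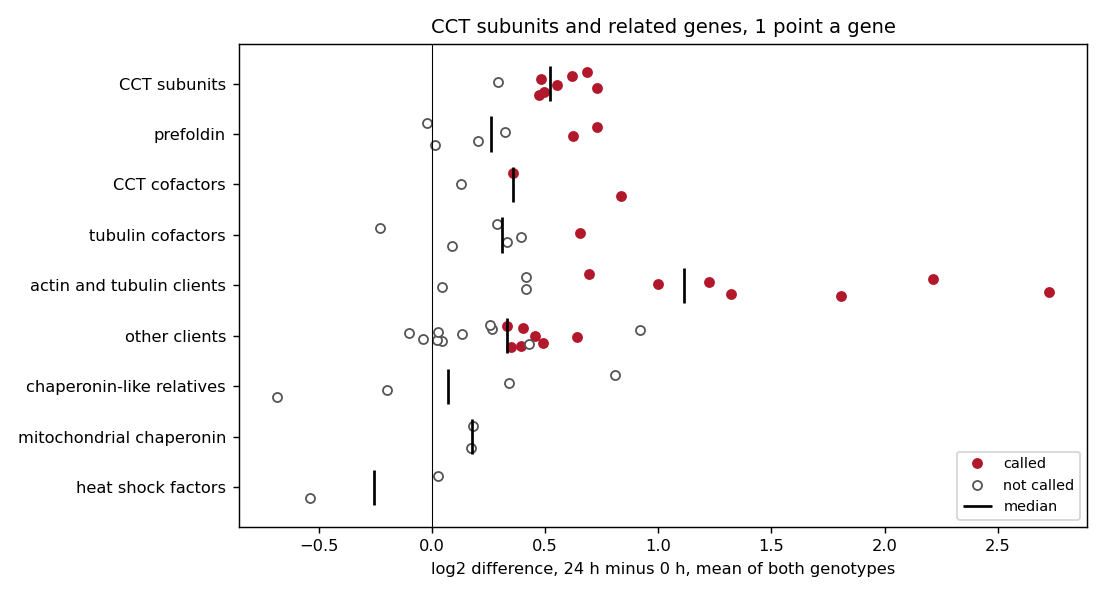
Log2 difference between 24 h and 0 h, averaged over both genotypes, for the 8 CCT subunit genes (top) and for genes of related lists, with 1 point a gene, filled where called, and the list median as a vertical bar. The CCT subunits lie between 0.29 and 0.73, below most of the called actin and tubulin genes.

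Marker genes of cell types give the setting of these changes. Hepatocyte markers were measured at high levels, with summed linear signals of 57590 to 58430 in null-labelled liver at 24 h and 62220 to 62290 at 0 h, and of 58880 to 59040 in wild type liver at 24 h and 58840 to 63670 at 0 h. In the average response 1 of the 7 tested fell (Cps1, -0.40) and none rose, where 12.1% of all genes rose and 13.1% fell. Apoa1, Alb and Ttr, the brightest of them, repeat exact values between arrays, as quantile normalisation gives to equal ranks (Apoa1 read 13.88 in an array of every group). A rise in them could therefore be missed, and the sums rest mostly on the brightest markers. Of 6 Kupffer cell and macrophage markers, 2 rose (Marco, 4.07, and Cd68, 1.26) and 1 fell (Adgre1, -0.52). This list was mixed, with 4 of 6 above 0, a range of -0.59 to 4.07 and a median of 0.23. By genotype, its median was 0.51 in null-labelled and -0.04 in wild type liver. The summed signal of these 6 markers was 1705 to 2074 in null-labelled liver at 24 h, against 1335 to 1380 at 0 h. In wild type liver it was 1423 to 1779 at 24 h, against 1418 to 1600 at 0 h. Of 6 neutrophil markers, 3 were tested and 2 rose (S100a8, 2.88, and S100a9, 2.25), while Elane, Ly6g and Camp had no tested probe set. The remaining marker, Mpo, was not called and averaged -0.38, with -1.11 in null-labelled and 0.35 in wild type liver. The neutrophil sum was 154 to 270 at 24 h and 59.7 to 60.3 at 0 h in null-labelled liver, and 127 to 624 at 24 h and 49.7 to 57.1 at 0 h in wild type liver. Of 6 proliferation markers, 1 rose in the average response (Pcna, 1.02). Taken by genotype, 3 rose in null-labelled liver (Pcna, Cdk1 and Birc5) and 0 in wild type liver, beside 5.67% and 2.52% of all genes, but 0 of 6 were called in the difference of responses or between genotypes at 24 h. Ccnb2, Top2a and Mki67 were dim and stood at -0.50, -0.01 and 0.11 in null-labelled liver, not called. The summed signal of the 6 was 1223 to 1632 at 24 h and 478.5 to 481.6 at 0 h in null-labelled liver, and 578 to 764 at 24 h and 508 to 544 at 0 h in wild type liver. Most of that sum is Pcna, which averaged 10.14 on the log2 scale in null-labelled liver at 24 h, against 7.56 for Cdk1, the next brightest there. The summed signal of the 8 CCT genes was 11520 to 11800 at 24 h and 7942 to 8130 at 0 h in null-labelled liver, and 11430 to 11990 at 24 h and 7887 to 8048 at 0 h in wild type liver. Among other cell types, 1 of 6 endothelial markers rose (Pecam1, 0.79) and 1 of 4 cholangiocyte markers rose (Sox9, 0.99). The endothelial list was mixed, with 3 of 6 above 0, a range of -0.73 to 0.92 and a median of 0.10. All 4 cholangiocyte markers lay above 0, with a median of 0.41. Of 6 stellate cell markers 3 fell (Reln, -0.95, Col3a1, -0.85, and Des, -0.87), where 13.1% of all genes fell. On that list 2 of 6 lay above 0, with a range of -1.65 to 0.21 and a median of -0.86. Of 4 lymphocyte markers 2 fell (Cd8a, -0.61, and Cd79a, -0.37). Among these 4, 1 lay above 0, with a range of -0.77 to 0.30 and a median of -0.49. The 1 tested erythroid marker fell (Alas2, -1.13). The calls of Marco, Cd68, Pcna and Alas2 held in 18 of 18 other settings. Those of S100a8, Pecam1, Reln and Des were lost when single arrays were left out, and those of Cps1, Adgre1, S100a9, Sox9 and Cd79a in 8 to 14 of the 18. Cd8a and Col3a1 lost theirs in 1, the mean of a gene's probe sets. The part of these cells in the CCT results was not tested.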

How the data were processed

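Liver RNA on 8 Affymetrix arrays was analysed from a single table of log2 signals deposited by the authors; the log2 unit was read from the values, and no source used here names the algorithm. After 64 controls were removed from 45101 probe sets, the other 45037 were used. Genes were named from the platform annotation, which gives 34945 probe sets 1 symbol, 932 several and 9160 none. Because array quartiles differed by up to 0.62, values were quantile normalised, and probe sets exceeding the 40th percentile on 2 or more of the 8 arrays were kept. A mean for each of 4 groups was fitted with limma 3.58.1 in R 4.3.3 and p-values were adjusted over all 30525 probe sets, two-sided. The fit was tested on simulated data.

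The members and gene lists were chosen with earlier results of these data known. The text names all members, Tob1, up to 4 genes of each related list with the smallest p in the average response, and the 6 genes most correlated with the subunit mean, with symbols of predicted genes or clones skipped. Markers called in the average response, with Cdk1, Birc5, Ccnb2, Top2a, Mki67, Mpo, Apoa1, Alb, Ttr, Actb, Actg1, Tubb6 and Ppp4c, were named after their values were seen. Lists are described by counts and medians, without a list test. Replicates are separate pools, and with 2 arrays a group the precision is low. Replicate numbers were not used to pair the arrays in the main fit. Deviations of same-numbered arrays correlated at -0.17 to 0.06 between groups. Promoters are RefSeq windows of GRCm38.p6; the files give no coordinates. Alternatives covered scaling, filters, probe set choice, variance prior, array weights, a replicate block, thresholds and each array left out; those for related genes and markers were added after the data were seen.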

Additional observations from a re-analysis of the deposited data

Results flagged for a closer look

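Among the named genes and all genes of the lists called in a response, 8 had null-labelled arrays entirely on opposite sides of the wild type arrays at 24 h and at 0 h, and none of them is a CCT subunit. Over all genes, the genotypes did not overlap in either direction for 40.7% at 24 h and 48.1% at 0 h. How many of all genes lay on opposite sides at the 2 times was not counted, so these 8 are not read as a genotype result. The difference of responses, null-labelled minus wild type, was 1.52 for Cd68 (adjusted p = 0.456), 1.16 for Pcna (adjusted p = 0.584), 0.67 for Tuba1a (adjusted p = 0.601), 0.47 for Hdac2 (adjusted p = 0.647), 0.39 for Pfdn1 (adjusted p = 0.7), 0.30 for Tbcb (adjusted p = 0.728), 0.29 for Ppp4c, a protein phosphatase subunit on the list of other substrates (adjusted p = 0.722), and -0.16 for Grn (adjusted p = 0.849), so none was called by limma. Cd68 read 6.80 and 6.84 in null-labelled and 6.24 and 6.22 in wild type liver at 24 h, and 4.97 and 4.64 in null-labelled against 5.77 and 5.70 in wild type liver at 0 h. Pcna read 10.32 and 9.95 in null-labelled and 8.99 and 9.35 in wild type liver at 24 h, and 8.60 and 8.48 against 8.71 and 8.76 at 0 h. Tuba1a read 7.33 and 7.69 in null-labelled and 7.30 and 7.23 in wild type liver at 24 h, and 6.18 in both null-labelled arrays against 6.60 and 6.61 at 0 h.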

How the results depend on the processing

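Counts of CCT probe sets called, null-labelled response, wild type response and average response in that order, were 9, 8 and 16 of 22. They were 7, 2 and 15 with the deposited values, 9, 1 and 15 with median centring (which moved the median of all probe sets in the null-labelled response to 0.11), 0, 0 and 11 of 25 with no filter, and 16, 14 and 19 of 19 with a filter at the 60th percentile. They were 15, 12 and 19 with 16 added on the linear scale, 16, 17 and 19 with a trended and robust prior, 9, 8 and 16 with array weights, 17, 12 and 20 at an adjusted p under 0.1, and 1, 0 and 1 with a 2-fold minimum. Fitting only the groups compared called 0 and 0, and 0 of all probe sets. The shares of all probe sets called in the 3 responses were 10.8%, 5.34% and 23.8%. They were 10.7%, 4.42% and 22.8% with the deposited values, 9.88%, 3.21% and 21.1% with median centring, 28.2%, 20.1% and 42.8% with the stricter filter, 17.1%, 11.8% and 28.7% with 16 added, 19.3%, 14.9% and 29.8% with the trended prior, 8.18%, 7.94% and 23.8% with array weights, 21.4%, 14% and 34.2% at an adjusted p under 0.1, 6.07%, 3.52% and 6.89% with the 2-fold minimum and 2.31%, 0.0197% and 17.6% with the replicate block. With 1 probe set a gene the CCT counts were 7, 3 and 8 of 8, beside 14.7%, 9.21% and 28.8% of all genes. With the mean of a gene's probe sets they were 5, 3 and 8 of 8, beside 11.4%, 7.25% and 24.7% of all genes. The replicate block gave 1, 0 and 15. Deviations of same-numbered arrays correlated at -0.17 to 0.06 between groups, which cannot exclude a pairing that affects only some probe sets. In every group the mean of the 8 subunits was higher in the first array than in the second. Leaving out 1 array gave 0 to 4, 0 to 5 and 10 to 16. For both genotype comparisons and the difference of responses the count was 0 in every setting. Each of the 8 genes kept its sign in all 3 responses; the cause of the moved counts was not tested. Over all probe sets, the no-filter fit called 71, 12 and 3808, against 3289, 1630 and 7259. Of calls in all probe sets with median centring, 2232 were higher and 784 lower in the null-labelled response and 4192 and 2245 in the average, against 1849 and 1440, and 3792 and 3467.

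Small genotype differences changed sign. At 24 h, null-labelled minus wild type, Cct3 became 0.035 with the deposited values, 0.19 with median centring and 0.040 with the mean of probe sets, Cct6a 0.10 with median centring and Cct2 -0.0048 with the mean. At 0 h Cct2 became -0.033 with the deposited values and -0.075 with the mean. With median centring the difference of responses was 0.11 for Cct3 and 0.079 for Cct4. In the average response Hspd1 became -0.0038 and Hsf2 -0.13 with the deposited values, Hsf2 -0.029 with median centring, and Ccne1 -0.046 with the mean. Leaving out 1 array, the differences at 24 h spanned -0.030 to 0.046 for Cct2, -0.089 to 0.035 for Cct3 and -0.048 to 0.10 for Cct8, and those at 0 h -0.060 to 0.006 for Tcp1, -0.037 to 0.041 for Cct2 and -0.12 to 0.0057 for Cct6a. The difference of responses spanned -0.034 to 0.044 for Cct2, -0.049 to 0.082 for Cct6a and -0.034 to 0.057 for Cct7, and the average response of Hsf2 -0.069 to 0.12. The cause of these changes was not tested.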
